A study of Rattus norvegicus with 8 samples.

Results

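Mitosis and spindle genes encode the proteins that take a cell through division. A list of 49 such genes was drawn up by symbol, from cyclins and mitotic kinases to kinesin motors and cytokinesis regulators. Of the 49 genes, 42 had a probe set annotated to that 1 symbol on the array, and the brightest probe set of each was used. All 42 were among the 11377 genes tested, and they lay above the filter on dim probe sets (4.81 log2) on every array. Levels of the other 7, Anln, Ckap2, Kif4a, Ncapg, Ndc80, Nek2 and Tpx2, were not analysed here. Values of the 42 ranged from 5.41 to 11.23 on the log2 scale.

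Transcripts of these genes accumulate late in the cell cycle and are removed after division. Cyclin A and cyclin B proteins activate the kinase Cdk1 to start mitosis, condensins and topoisomerase compact and untangle the chromosomes, and kinetochores attach them to spindle microtubules that kinesin motors move. A checkpoint holds anaphase until every chromosome is attached, after which the anaphase-promoting complex has cyclin B and the separase inhibitor securin destroyed, and the cell is cut apart. Smooth muscle cells of the normal arterial wall rarely divide, and they divide in culture with serum and after vessel injury.

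RNA came from thoracic aortic smooth muscle cells of male Sprague-Dawley rats, freed by enzymatic digestion, grown in M199 medium with 10% serum and used after 2 passages. The labels give no age for the rats. All cells received an siRNA for 48 h. It was a non-targeting control (siNTC) or was directed against rat Giver, a long non-coding RNA of these cells (siGiver). For a further 3 h they were given angiotensin II at 100 nM (Ang II), a peptide hormone that constricts vessels, or the same volume of PBS. The 4 groups were thus siNTC with PBS, siNTC with Ang II, siGiver with PBS and siGiver with Ang II, with 2 Affymetrix arrays each. The design asks how siRNA against Giver changes the cells and how each siRNA arm responds to Ang II. The annotation names no probe set for Giver, and its knockdown was not checked here. Whether both arrays of a group stem from their own culture is not in the labels, and p-values then reflect only how far these arrays spread, which may be technical. The number of arrays limits the precision, and the median SE of a difference was 0.055 log2 over the 42 genes.

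Promoters of late cell cycle genes are known to share a short element, the cell cycle genes homology region (TTTGAA), often near a CCAAT box. The first is bound by MuvB complexes together with the products of Mybl2 or Foxm1, and the second by the factor NF-Y. RefSeq promoter windows (GRCr8 build, 250 bases before to 50 after the annotated start) were found for 43 of the 49 genes. Stretches from 200 bases before to 30 after the start are printed for 8 genes, 1 from each role. In its role each has the largest siGiver minus siNTC difference in PBS among genes with a window. Capitals mark TTTGAA and CCAAT on either strand, so TTCAAA and ATTGG too, and overlapping matches share their capitals, as in Mki67, where a TTTGAA runs into an ATTGG. The sequences run 5′ to 3′ along each gene.
Cdk1: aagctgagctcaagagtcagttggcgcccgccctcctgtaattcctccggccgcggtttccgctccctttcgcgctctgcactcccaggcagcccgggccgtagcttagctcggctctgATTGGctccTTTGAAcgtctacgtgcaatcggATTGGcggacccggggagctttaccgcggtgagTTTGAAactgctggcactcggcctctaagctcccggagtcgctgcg
Plk1: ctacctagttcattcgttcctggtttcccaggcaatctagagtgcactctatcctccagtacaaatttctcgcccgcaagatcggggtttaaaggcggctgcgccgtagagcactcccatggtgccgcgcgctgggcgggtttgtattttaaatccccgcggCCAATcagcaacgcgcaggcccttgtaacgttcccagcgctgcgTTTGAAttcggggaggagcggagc
Bub1b: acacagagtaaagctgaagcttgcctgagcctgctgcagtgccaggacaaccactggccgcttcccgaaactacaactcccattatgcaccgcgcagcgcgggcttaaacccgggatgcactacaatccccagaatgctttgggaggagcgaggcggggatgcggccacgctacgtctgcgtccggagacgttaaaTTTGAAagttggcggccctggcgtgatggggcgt
Nuf2: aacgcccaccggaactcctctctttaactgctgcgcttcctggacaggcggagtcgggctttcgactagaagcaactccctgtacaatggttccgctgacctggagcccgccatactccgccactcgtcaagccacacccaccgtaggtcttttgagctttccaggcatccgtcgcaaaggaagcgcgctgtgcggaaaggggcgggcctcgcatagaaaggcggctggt
Mki67: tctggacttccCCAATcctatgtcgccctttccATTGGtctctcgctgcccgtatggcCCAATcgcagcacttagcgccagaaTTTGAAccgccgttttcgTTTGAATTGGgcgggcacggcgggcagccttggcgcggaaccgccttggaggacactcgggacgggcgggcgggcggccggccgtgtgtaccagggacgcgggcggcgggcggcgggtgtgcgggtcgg
Kif11: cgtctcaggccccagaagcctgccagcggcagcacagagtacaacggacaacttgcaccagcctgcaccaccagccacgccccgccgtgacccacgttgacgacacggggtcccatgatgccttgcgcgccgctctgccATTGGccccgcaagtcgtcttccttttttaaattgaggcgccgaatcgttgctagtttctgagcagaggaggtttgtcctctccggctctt
Nusap1: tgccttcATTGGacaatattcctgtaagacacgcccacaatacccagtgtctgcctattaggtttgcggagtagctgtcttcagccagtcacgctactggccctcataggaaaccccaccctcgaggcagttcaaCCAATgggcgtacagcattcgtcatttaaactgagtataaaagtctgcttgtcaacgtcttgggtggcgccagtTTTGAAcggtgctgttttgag
Ect2: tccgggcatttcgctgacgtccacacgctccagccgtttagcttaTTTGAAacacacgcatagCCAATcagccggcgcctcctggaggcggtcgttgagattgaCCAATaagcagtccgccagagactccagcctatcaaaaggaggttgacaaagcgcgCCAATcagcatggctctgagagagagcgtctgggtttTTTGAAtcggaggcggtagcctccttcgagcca

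The Cdk1 stretch lies at chr20:19265093-19265322, the Plk1 stretch at chr1:186147458-186147687 and the Bub1b stretch at chr3:126016867-126017096, all on the plus strand. On the same strand lie those of Kif11 (chr1:244536667-244536896) and Nusap1 (chr3:127057095-127057324). The Nuf2 (chr13:84255569-84255798), Mki67 (chr1:199952564-199952793) and Ect2 (chr2:111966597-111966826) stretches are on the minus strand. In Cdk1, TTTGAA begins at bases -72 and -16 from the start, and the ATTGG matches at -81 and -49. In Bub1b, a TTTGAA begins at -4 and no CCAAT is present. Plk1 has a CCAAT at -38 and a TTTGAA at 7, just past the start. Kif11 has an ATTGG at -61 and no TTTGAA. The stretch of Nuf2 holds no capitals, as its TTTGAA begins at base 30, the last base printed, and runs past the end.

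TTTGAA was present, on either strand, in the 300-base windows of 32 of the 43 genes (74.4%). The share was 12.1% over the 9484 tested genes with a window and 19.4% over all 27457 genes with one. Within 50 bases of the start it was present in 21 of the 43 (48.8%), against 3.22% of tested genes, and its 41 matches began at a median of -31 from the start, between -214 and 34. CCAAT was present in 33 of the 43 (76.7%), against 39.1% of tested genes, with a median start of -99. Matches and their positions were counted per window, and Cdkn3 has windows at different starts, so its matches entered for each. Both motifs together were found in 27 (62.8%), against 5.34%. The variant TTTAAA was present in 14 (32.6%) against 9.18%. Forms of the E2F site were rare among the 43 genes, TTTCGCGC in 1 (2.33%, against 0.685% of tested genes) and TTCCCGCC in 2 (4.65%, against 4%). The 43 genes include Anln, Ckap2, Kif4a, Ncapg, Ndc80 and Nek2, whose levels were not analysed. These counts describe letters in a window, and the windows of Ube2c, Racgap1, Tpx2, Ccna2, Pbk and Aurkb were not analysed here.

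In PBS, siGiver cells had higher levels of nearly all of these transcripts than siNTC cells. Of the 42 genes, 41 were higher and 0 lower at a Benjamini-Hochberg adjusted p under 0.05 from a limma fit across all genes (called, from here on), and 0 were lower at an unadjusted p under 0.05 too. Over all 11377 genes tested, 35.0% were called in this comparison, 16.0% higher and 19.1% lower. The median difference of the 42 genes was 0.56 log2, against -0.0047 over all genes tested, with a range from 0.22 for Kif23 to 0.84 for Kif11. In all 42 genes both siGiver arrays lay above both siNTC arrays, which was so for 31.5% of all genes tested. At least 1.5-fold higher were 17 of the 42, and 290 of all genes tested. In whole cultures, a larger share of dividing cells and more of these transcripts per cell cannot be told apart.

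With Ang II present the picture was similar. Called higher were 39 of the 42 genes and 0 were lower, against 44.3% called over all genes, 19.5% higher and 24.8% lower. The median was 0.50 log2 (-0.026 over all genes tested), from 0.04 for Smc4 to 0.91 for Ccna2. Both siGiver arrays lay above both siNTC arrays in 41 of 42, against 31.7% of all genes. The 2 siRNA comparisons use different arrays but share 1 estimate of spread per gene, so their calls are not independent. Called higher in both were 39 of the 42 genes and 1352 of the 11377 genes tested. The 3 not called with Ang II were Smc4, Kif23 and Aurka, and Smc4 was the 1 not called in PBS.

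**Figure D1:**
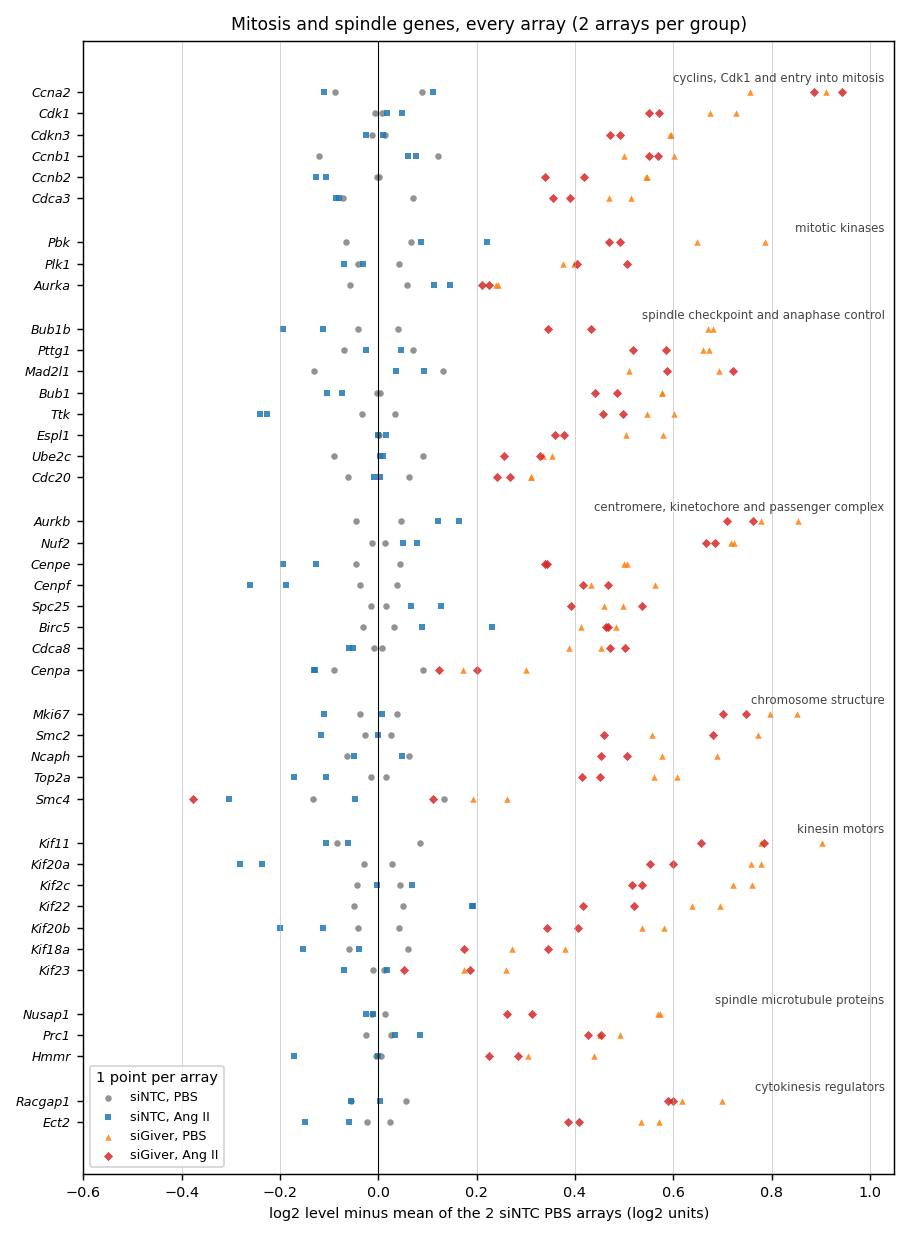
Levels of the 42 genes on each of the 8 arrays, as log2 level minus the mean of the 2 siNTC PBS arrays of that gene; 1 point is 1 array, and genes are grouped by role. The gene medians of the siNTC arrays lie between -0.05 and 0.02, those of the siGiver PBS arrays at 0.56 and 0.57, and those of the siGiver Ang II arrays at 0.42 and 0.46.

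All 6 genes of the cyclins, Cdk1 and entry into mitosis were higher in siGiver cells in both comparisons. Ccna2 encodes cyclin A2, a Cdk partner of S phase and early mitosis. Its log2 levels were 8.46 and 8.63 on the siNTC PBS arrays, 8.66 and 8.43 with siNTC and Ang II, 9.30 and 9.46 with siGiver and PBS, and 9.49 and 9.43 with siGiver and Ang II. All 4 siGiver arrays thus lay above all 4 siNTC arrays, and Ang II and PBS arrays overlapped within each arm. The siGiver minus siNTC difference was 0.83 ± 0.094 (SE, 2 arrays per group) in PBS, 1.78-fold with adjusted p = 0.00051, and 0.91 ± 0.094 with Ang II, 1.88-fold with adjusted p = 0.000224. Cdca3, which helps degrade an inhibitor of Cdk1, had the smallest difference of this role. It read 7.97 and 8.11, then 7.95 and 7.96, then 8.51 and 8.55, then 8.40 and 8.43 in the same order of groups. Again the arms did not overlap, and the differences were 0.49 ± 0.056 and 0.46 ± 0.056. Cdk1 itself, the kinase that drives entry into mitosis, was higher by 0.70 ± 0.044 in PBS and 0.53 ± 0.044 with Ang II. Ccnb1 and Ccnb2, the B-type cyclins that partner Cdk1, were higher by 0.55 and 0.55 in PBS and by 0.49 and 0.50 with Ang II. The Cdk phosphatase gene Cdkn3 was higher by 0.59 and 0.49.

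Among the mitotic kinases, 3 of 3 measured were called higher in PBS and 2 of 3 with Ang II. Pbk encodes a kinase made mainly in dividing cells. Its levels were 7.62 and 7.75 (siNTC, PBS), 7.91 and 7.77 (siNTC, Ang II), 8.34 and 8.47 (siGiver, PBS) and 8.18 and 8.16 (siGiver, Ang II). The arms were separate in both treatments, by 0.72 ± 0.073 in PBS (1.65-fold, adjusted p = 0.000326) and 0.33 ± 0.073 with Ang II (adjusted p = 0.00823). Without siNTC Ang II replicate 2 the second value was 0.26 and the call was lost (adjusted p = 0.054). Aurka, a kinase of centrosomes and spindle poles, had the smallest difference of the role. It stood at 7.95 and 7.84, then 8.04 and 8.01, then 8.13 and 8.14, then 8.12 and 8.11. All siGiver arrays were above all siNTC arrays by a small margin, with 0.24 ± 0.051 in PBS (adjusted p = 0.00855) and 0.09 ± 0.051 with Ang II, which was not called (adjusted p = 0.20). Plk1, a kinase needed from mitotic entry to cytokinesis, was higher by 0.39 ± 0.054 in PBS and 0.51 ± 0.054 with Ang II.

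The spindle checkpoint and anaphase control genes were called higher in both treatments, 8 of 8. Bub1b encodes BubR1, a checkpoint protein that inhibits the anaphase-promoting complex. Its arrays gave 7.37 and 7.45 with siNTC and PBS, 7.22 and 7.30 with siNTC and Ang II, 8.09 and 8.10 with siGiver and PBS, and 7.76 and 7.85 with siGiver and Ang II. The 4 groups did not overlap, and in each arm the Ang II arrays lay lower. The siRNA difference was 0.68 ± 0.055 in PBS (adjusted p = 0.000138) and 0.54 ± 0.055 with Ang II (adjusted p = 0.000214). Cdc20, the activator of the anaphase-promoting complex that the checkpoint holds back, had the smallest difference of the role. Its levels were 9.06 and 9.18, 9.11 and 9.13, 9.43 and 9.43, and 9.36 and 9.39 in the same order. The siGiver arrays were higher in both treatments, by 0.31 ± 0.052 and 0.26 ± 0.052. The checkpoint kinases Bub1 and Ttk were higher by 0.58 and 0.57 in PBS and by 0.55 and 0.71 with Ang II. Mad2l1, which binds Cdc20 in the checkpoint complex, was higher by 0.60 and 0.59. Downstream of the checkpoint, the securin gene Pttg1 was higher by 0.67 and 0.54, and the separase gene Espl1 by 0.54 and 0.36. Ube2c, the ubiquitin-conjugating enzyme of the anaphase-promoting complex, was higher by 0.34 and 0.29, and its call with Ang II was lost without siGiver Ang II replicate 2 (0.25, adjusted p = 0.0538).

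Centromere, kinetochore and passenger complex genes were likewise called higher, 8 of 8 in PBS and 8 of 8 with Ang II. Aurkb is the kinase of the chromosomal passenger complex, which corrects faulty attachments. It read 8.19 and 8.28 (siNTC, PBS), 8.40 and 8.35 (siNTC, Ang II), 9.01 and 9.09 (siGiver, PBS), and 8.99 and 8.94 (siGiver, Ang II). The arms were well apart, with a difference of 0.82 ± 0.053 in PBS (1.76-fold, adjusted p = 6.77e-05) and 0.59 ± 0.053 with Ang II (1.51-fold, adjusted p = 0.000126). Its partners in the complex, Birc5 (survivin) and Cdca8 (borealin), were higher by 0.45 and 0.42 in PBS and by 0.31 and 0.54 with Ang II. Cenpa, the histone variant that marks centromeres, differed least of the role. Its arrays gave 5.63 and 5.45, 5.42 and 5.41, 5.84 and 5.72, and 5.74 and 5.67. The siGiver arrays were still above the siNTC arrays, by 0.24 ± 0.073 in PBS (adjusted p = 0.0396) and 0.29 ± 0.073 with Ang II (adjusted p = 0.0135). The PBS call was lost without siNTC PBS replicate 2 (0.15, adjusted p = 0.195), without siGiver PBS replicate 1 (0.17, adjusted p = 0.198), and without any 1 array of the Ang II groups (0.24, adjusted p between 0.0519 and 0.0596). It was also lost with no filter on dim probe sets (adjusted p = 0.0631), with trended robust moderation (adjusted p = 0.0946) and with only the groups compared in the fit (adjusted p = 0.0781). The call with Ang II was lost without siNTC Ang II replicate 1 (0.29, adjusted p = 0.0553), siNTC Ang II replicate 2 (0.29, adjusted p = 0.0563) or siGiver Ang II replicate 1 (0.25, adjusted p = 0.0757). Nuf2 and Spc25, subunits of the Ndc80 complex that grips microtubules, were higher by 0.72 and 0.48 in PBS and by 0.61 and 0.37 with Ang II. The kinetochore motor gene Cenpe was higher by 0.50 in both treatments, and Cenpf by 0.50 and 0.67.

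Of the 5 chromosome structure genes, 4 were called higher in each treatment. Mki67 encodes Ki-67, which coats mitotic chromosomes and is widely used as a marker of proliferating cells. Its levels were 9.47 and 9.55 with siNTC and PBS, 9.52 and 9.40 with siNTC and Ang II, 10.31 and 10.36 with siGiver and PBS, and 10.26 and 10.21 with siGiver and Ang II. The siGiver arrays all lay above the siNTC arrays, with differences of 0.82 ± 0.057 (1.77-fold, adjusted p = 7.94e-05) and 0.78 ± 0.057 (1.71-fold, adjusted p = 5.38e-05). Smc4, a core subunit of condensin, read 8.73 and 9.00, 8.81 and 8.56, 9.05 and 9.12, and 8.97 and 8.48. With Ang II the arms overlapped, and the 2 siGiver Ang II arrays were far apart. Its differences, 0.23 ± 0.16 (adjusted p = 0.327) and 0.04 ± 0.16 (adjusted p = 0.86), were not called. A dimmer probe set of Smc4 gave 0.41 in PBS and 0.54 with Ang II, both called when every probe set was tested (adjusted p = 0.00335 and 0.000666). Smc2, the other core condensin subunit, was higher by 0.66 and 0.63, and the condensin subunit gene Ncaph by 0.63 and 0.48. Top2a, the topoisomerase that untangles sister chromatids, was higher by 0.58 and 0.57.

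All 7 kinesin genes were called higher in PBS and 6 of the 7 with Ang II. Kif11 encodes Eg5, the motor that pushes spindle poles apart. On the siNTC arrays it gave 7.34 and 7.17 in PBS and 7.19 and 7.15 with Ang II, and on the siGiver arrays 8.03 and 8.16 in PBS and 7.91 and 8.04 with Ang II. The arms did not overlap, and the difference was 0.84 ± 0.076 in PBS (1.79-fold, adjusted p = 0.000201) and 0.81 ± 0.076 with Ang II (1.75-fold, adjusted p = 0.000155). Kif23, a motor of the centralspindlin complex that organises the middle of the spindle, changed least. Its levels were 10.76 and 10.78, 10.79 and 10.70, 10.94 and 11.03, and 10.96 and 10.82. The siGiver arrays were just above the siNTC arrays, by 0.22 ± 0.062 in PBS (1.16-fold, adjusted p = 0.0295) and 0.15 ± 0.062 with Ang II, which was not called (adjusted p = 0.0947). The PBS call of Kif23 was lost without siNTC PBS replicate 1 (0.21, adjusted p = 0.111), siNTC PBS replicate 2 (0.23, adjusted p = 0.0861), siGiver PBS replicate 1 (0.26, adjusted p = 0.0506) or siGiver PBS replicate 2 (0.17, adjusted p = 0.139). Kif20a, which works in cytokinesis, was higher by 0.77 and 0.84, and its relative Kif20b by 0.56 and 0.53. Kif2c, which takes apart microtubule ends at centromeres, was higher by 0.74 and 0.49, and the chromosome-binding motor gene Kif22 by 0.67 and 0.28. Kif18a, which dampens chromosome movement, was higher by 0.33 and 0.36. Its calls were lost without siNTC PBS replicate 2 (0.27, adjusted p = 0.0907) or siGiver PBS replicate 2 (0.27, adjusted p = 0.0808) in PBS, and without siNTC Ang II replicate 1 (0.30, adjusted p = 0.0512) with Ang II.

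The 3 spindle microtubule proteins and the 2 cytokinesis regulators were called higher in both treatments. Nusap1, which bundles spindle microtubules near chromosomes, read 9.11 and 9.14 (siNTC, PBS), 9.11 and 9.10 (siNTC, Ang II), 9.69 and 9.70 (siGiver, PBS), and 9.44 and 9.39 (siGiver, Ang II). The siNTC groups coincided, while the siGiver arrays were higher and split by treatment, with differences of 0.57 ± 0.043 in PBS (1.49-fold, adjusted p = 0.000104) and 0.31 ± 0.043 with Ang II (1.24-fold, adjusted p = 0.00099). Hmmr, a receptor of hyaluronan that also binds spindle microtubules, gave 8.78 and 8.77, 8.60 and 8.77, 9.21 and 9.08, and 9.00 and 9.06. Its siGiver arrays were higher by 0.37 ± 0.071 and 0.34 ± 0.071. Prc1, which crosslinks the microtubules of the central spindle, was higher by 0.47 and 0.38. Racgap1, the partner of Kif23 in centralspindlin, read 9.09 and 9.20, 9.15 and 9.09, 9.77 and 9.85, and 9.74 and 9.75. The arms were apart by 0.66 ± 0.056 (1.58-fold, adjusted p = 0.000161) and 0.62 ± 0.056 (1.54-fold, adjusted p = 0.000128). Ect2, the exchange factor that switches on RhoA for the contractile ring, gave 9.57 and 9.52, 9.49 and 9.40, 10.08 and 10.12, and 9.93 and 9.96. Its siGiver arrays were higher by 0.55 ± 0.049 and 0.50 ± 0.049, without overlap.

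**Figure D2:**
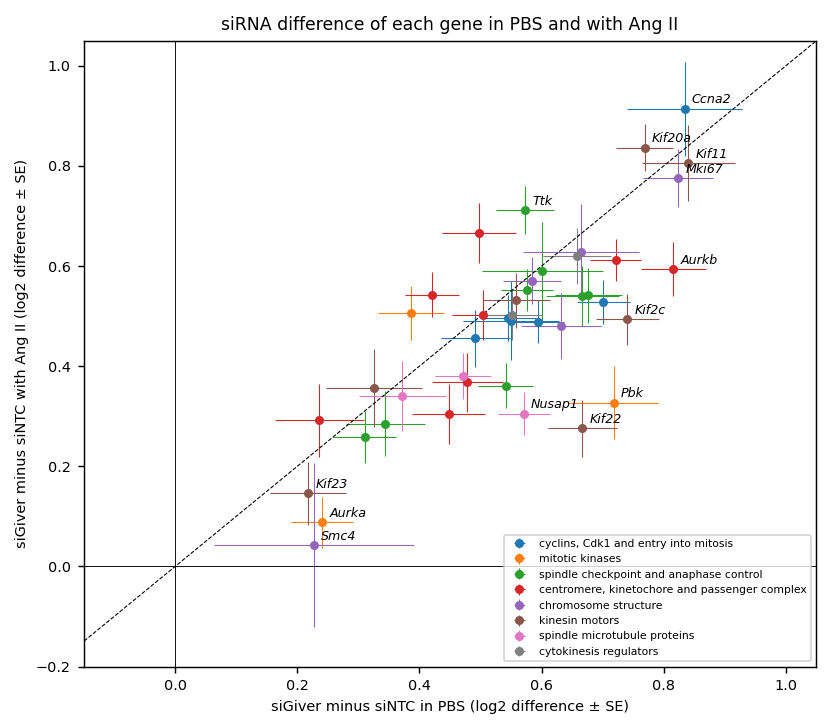
The siGiver minus siNTC difference of each of the 42 genes in PBS (horizontal axis) against that with Ang II (vertical axis), in log2 units with bars of 1 SE from the limma fit and colours by role; the dashed line marks equal differences. All points lie above 0 on both axes, and Smc4 has the longest bars (SE 0.16). Below the dashed line sit 34 of the 42, Kif22, Pbk and Nusap1 among them, as would 6289 of all 11377 genes tested.

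Several genes had more than 1 probe set. The second probe sets of Ccnb1, Hmmr, Kif11, Kif2c, Nusap1, Racgap1, Top2a and Ttk, and both other probe sets of Mad2l1, were also called higher in PBS when every probe set was tested, with differences from 0.57 for Hmmr to 0.84 for Mad2l1. The second Kif23 probe set gave 0.23 in PBS and was not called (adjusted p = 0.151). Cdc20 had 5 probe sets, of which 3 were called (0.31, 0.41 and 0.29 in PBS). The fourth was dim and differed by 0.51 in PBS (adjusted p = 0.106) and -0.07 with Ang II (adjusted p = 0.82), and the fifth lay below the filter.

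Differences overlapped between genes with different promoter letters. Among the genes tested, the median siGiver minus siNTC difference in PBS was 0.54 for the 24 with both TTTGAA and CCAAT (from 0.22 to 0.82) and 0.68 for the 3 with TTTGAA alone. It was 0.55 for the 5 with CCAAT alone, Kif11 among them, and 0.58 for the 5 with neither motif, which were Aurka, Bub1, Kif18a, Kif2c and Ncaph. With Ang II the medians of these 4 groups were 0.49, 0.59, 0.50 and 0.48. The variant TTTAAA did not enter this grouping, and the printed stretch of Kif11 holds it.

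A wider list of 81 other tested genes of mitosis moved mainly the same way. In PBS 59 were called higher and 2 lower, with a median of 0.45, and with Ang II 57 higher and 8 lower, with a median of 0.38. The largest called differences in PBS were in Mybl2, which encodes the transcription factor B-Myb (1.05 ± 0.053), the kinetochore genes Cenpq (0.93 ± 0.076), Spc24 (0.90 ± 0.048) and Cenpt (0.90 ± 0.080), and Mis18a (0.92 ± 0.092), which licenses centromeres for new Cenpa. With Ang II they were in Mybl2 (1.31 ± 0.053), Cenpt (0.97 ± 0.080), Cdc25b (0.90 ± 0.064), a phosphatase that activates Cdk1, Mis18a (0.89 ± 0.092) and Depdc1 (0.89 ± 0.066). Called lower in PBS were Cdc16 (-0.15 ± 0.045), a subunit of the anaphase-promoting complex, and the kinase gene Nek7 (-0.24 ± 0.042). With Ang II, Nek7 (-0.31), Gtse1 (-0.49), the kinetochore genes Ska2 (-0.45) and Zwint (-0.18), the cohesin subunit gene Stag1 (-0.26), Anapc1 (-0.15), Anapc4 (-0.19) and the anaphase-promoting complex activator gene Fzr1 (-0.15) were called lower.

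Within that list, complexes differed in their medians, in groupings made after the values were seen. Over all genes tested, 16.0% were called higher and 19.1% lower in PBS, and 19.5% and 24.8% with Ang II. The 9 tested subunits of the anaphase-promoting complex had a median of -0.10 in PBS, with 1 called higher and 1 lower, and of -0.0025 with Ang II, with 1 higher and 2 lower. The 5 cohesin subunits had 2 higher in PBS (median 0.09) and 2 higher and 1 lower with Ang II (median 0.03). In contrast, 9 of 10 other Cenp genes were higher in PBS (median 0.54) and 8 of 10 with Ang II (median 0.43). Mybl2, Foxm1 and the MuvB genes Lin9 and Lin54, whose products act on the TTTGAA element, were 4 of 4 higher in both. That grouping took in no other MuvB subunit. Foxm1 was higher by 0.61 ± 0.083 in PBS and 0.80 ± 0.083 with Ang II, Lin9 by 0.36 and 0.36, and Lin54 by 0.34 and 0.27.

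Genes of the preceding DNA synthesis phase moved likewise. Of 21 tested DNA replication genes, 19 were called higher and 0 lower in PBS (median 0.64), and 18 higher and 1 lower with Ang II (median 0.46). The helicase subunit gene Mcm7 was higher by 0.90 ± 0.050 in PBS, the polymerase gene Pole by 0.88 ± 0.051, the licensing factor gene Cdt1 by 0.84 ± 0.047 and the ribonucleotide reductase gene Rrm1 by 0.79 ± 0.047. Cell cycle brakes, 13 tested, had no common direction, with 3 higher and 3 lower in PBS (median 0.0041) and 4 higher and 5 lower with Ang II (median 0.04). Cdkn2b, which inhibits the kinases of early cell cycle entry, was lower by -1.003 ± 0.054 in PBS and -1.10 ± 0.054 with Ang II. Cdkn1a, the p53-induced inhibitor p21, was lower by -0.35 and -0.70. Cdkn2c and Cdkn2d were higher by 0.54 and 0.44 in PBS, and by 0.38 and 0.09 with Ang II, the last not called (adjusted p = 0.281).

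**Figure D3:**
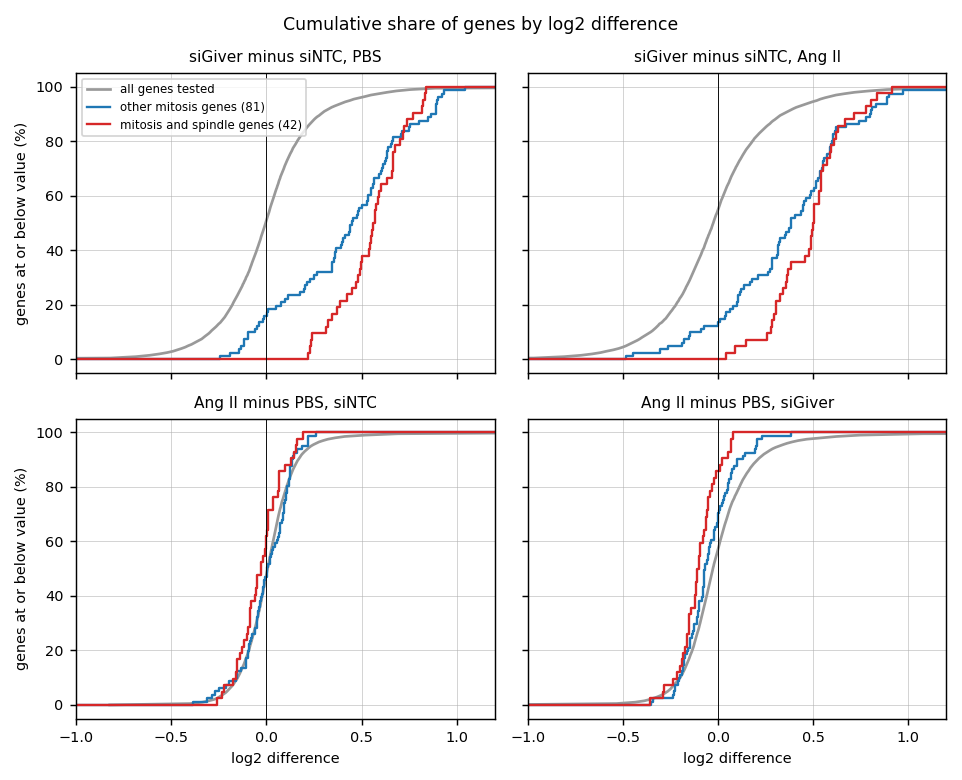
Cumulative share of genes (vertical axis, %) at or below a given log2 difference (horizontal axis) in 4 comparisons, for all 11377 genes tested, the 81 other mitosis genes and the 42 mitosis and spindle genes. In the upper panels, siGiver minus siNTC, the 42 genes have medians of 0.56 and 0.50; in the lower panels, Ang II minus PBS, -0.03 and -0.11.

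In siNTC cells, 3 h of Ang II left most of these transcripts near their PBS level. Called were 2 of the 42 genes, both lower, against 6.14% of all genes tested (3.96% higher and 2.17% lower). The median difference was -0.03, against 0.0058 over all genes. Kif20a read 9.42 and 9.48 on the siNTC PBS arrays, 9.21 and 9.17 on the siNTC Ang II arrays, 10.23 and 10.21 on the siGiver PBS arrays, and 10.00 and 10.05 on the siGiver Ang II arrays. In both arms the Ang II arrays lay below the PBS arrays, and the fall in siNTC cells was -0.26 ± 0.046 (adjusted p = 0.0197). Ttk gave 8.16 and 8.23, 7.95 and 7.97, 8.80 and 8.74, and 8.65 and 8.69 in the same order. It was lower with Ang II in siNTC cells by -0.23 ± 0.047 (adjusted p = 0.0319), and its dimmer probe set gave -0.05 (adjusted p = 0.893). Both calls depended on single arrays. That of Kif20a was lost without siNTC PBS replicate 1 (-0.29, adjusted p = 0.0657) or replicate 2 (-0.23, adjusted p = 0.0868), and without siNTC Ang II replicate 1 (-0.28, adjusted p = 0.0707) or replicate 2 (-0.24, adjusted p = 0.125). That of Ttk was lost without any of these 4 arrays (-0.20 to -0.27, adjusted p between 0.0781 and 0.132) or either siGiver Ang II array (-0.23, adjusted p = 0.0551). At an unadjusted p under 0.05, 4 genes were higher and 8 lower in this comparison, against 1418 and 1187 of all 11377 genes tested.

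In siGiver cells, more of these genes were lower with Ang II than higher. Called were 6 of the 42, all lower, against 16.3% of all genes tested (9.11% higher and 7.17% lower), so the share called in either direction was near that of all genes. At an unadjusted p under 0.05, 0 were higher and 15 lower, against 1784 higher and 1938 lower of all 11377 genes tested. The median was -0.11, against -0.03 over all genes tested. For 28 of the 42 genes both Ang II arrays lay below both PBS arrays, which was so for 35.7% of all genes. Called lower were Bub1b (-0.29 ± 0.055, adjusted p = 0.0128), Nusap1 (-0.28 ± 0.043, adjusted p = 0.00469), Kif2c (-0.21 ± 0.051, adjusted p = 0.0294), Kif20a (-0.19 ± 0.046, adjusted p = 0.0311), Espl1 (-0.17 ± 0.045, adjusted p = 0.0398) and Ccnb2 (-0.17 ± 0.046, adjusted p = 0.0464). The arrays of Bub1b, Nusap1 and Kif20a, given with their roles and above, showed the Ang II arrays of this arm below its PBS arrays. Kif2c read 7.39 and 7.47 (siNTC, PBS), 7.43 and 7.50 (siNTC, Ang II), 8.19 and 8.15 (siGiver, PBS), and 7.97 and 7.95 (siGiver, Ang II), so that Ang II lowered it in the siGiver arm while the siNTC groups overlapped. Its second probe set was also lower in this arm (-0.23, adjusted p = 0.0324), and gave -0.13 in siNTC cells (adjusted p = 0.218). Espl1 stood at 8.08 and 8.08, 8.08 and 8.10, 8.66 and 8.59, and 8.46 and 8.44, with the same pattern. The siGiver response minus the siNTC response was -0.25 for Kif2c and -0.18 for Espl1, and neither was called. The second probe set of Nusap1 gave -0.11, which was not called (adjusted p = 0.292).

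Leaving out arrays cut the count in siGiver cells to between 1 and 4. Without siGiver PBS replicate 1 or 2, or siGiver Ang II replicate 1, Bub1b was not called (-0.29, -0.28 and -0.24, adjusted p = 0.0617, 0.0581 and 0.0745). Without any 1 of the 4 siGiver arrays, Kif2c (-0.20 to -0.23, adjusted p between 0.0757 and 0.134) and Kif20a (-0.17 to -0.22, adjusted p between 0.0813 and 0.145) were not called. Espl1 (-0.13 to -0.21, adjusted p between 0.0544 and 0.187) and Ccnb2 (-0.13 to -0.21, adjusted p between 0.0621 and 0.214) were not called without any 1 of the 8 arrays. Smc4, not called with all arrays (-0.36 ± 0.16), was called lower without siGiver Ang II replicate 1 (-0.60, adjusted p = 0.042).

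**Figure D4:**
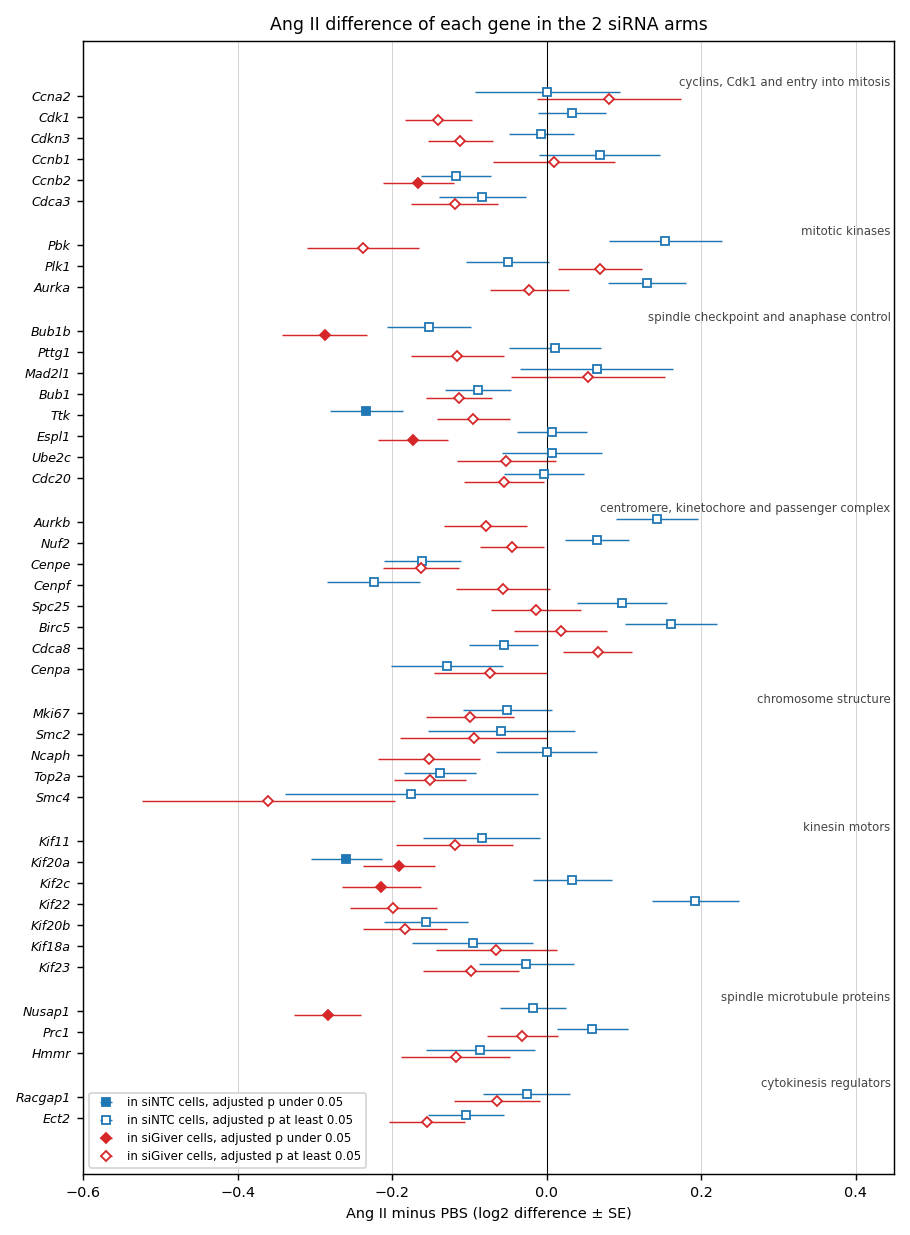
Ang II minus PBS difference of each of the 42 genes in siNTC cells (blue squares) and siGiver cells (red diamonds), in log2 units with bars of 1 SE from the limma fit, by role. Filled symbols are called (adjusted p under 0.05); they are Kif20a and Ttk in siNTC cells and 6 genes in siGiver cells, all below 0.

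The Ang II responses of the 2 arms were compared directly by the interaction, in which the siNTC response to Ang II was subtracted from the siGiver response. Called were 2 of the 42 genes, Kif22 and Nusap1, both below 0, against 6.21% of all genes tested (3.35% higher and 2.87% lower). The median was -0.05, against -0.02 over all genes. Kif22, a motor that pushes chromosome arms away from spindle poles, read 8.76 and 8.86 with siNTC and PBS, 9.00 and 9.00 with siNTC and Ang II, 9.45 and 9.51 with siGiver and PBS, and 9.23 and 9.33 with siGiver and Ang II. The Ang II arrays lay above the PBS arrays in the siNTC arm and below them in the siGiver arm. Neither of these differences was called by itself, 0.19 ± 0.057 (adjusted p = 0.0935) and -0.20 ± 0.057 (adjusted p = 0.0522), and the interaction was -0.39 ± 0.080 (adjusted p = 0.0312). Nusap1 differed between the arms by -0.27 ± 0.061 (adjusted p = 0.0465), with -0.02 in siNTC cells and -0.28 in siGiver cells, while its second probe set gave -0.14 (adjusted p = 0.478). The genes with the next smallest p were Pbk (-0.39 ± 0.10, adjusted p = 0.0682), Kif2c (-0.25 ± 0.072, adjusted p = 0.0937) and Aurkb (-0.22 ± 0.076, adjusted p = 0.138), which were not called. The second Kif2c probe set had an interaction of -0.09 (adjusted p = 0.546). In Pbk and Aurkb, as in Kif22, the siNTC mean was higher with Ang II and the siGiver mean lower. The Kif22 call was lost without siNTC PBS replicate 1 (-0.34, adjusted p = 0.089), any 1 siNTC Ang II array (-0.39, adjusted p = 0.0917 and 0.0952), siGiver PBS replicate 1 (-0.42, adjusted p = 0.0724), siGiver PBS replicate 2 (-0.36, adjusted p = 0.0937) or siGiver Ang II replicate 1 (-0.34, adjusted p = 0.0954). That of Nusap1 was lost without any 1 of the 8 arrays (-0.24 to -0.29, adjusted p between 0.0873 and 0.145).

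The other lists are set beside the shares of all genes given above for each Ang II comparison. Of the 81 other mitosis genes, Ang II lowered 1 in siNTC cells, the condensin subunit gene Ncapd2 (-0.31 ± 0.069). In siGiver cells 3 were higher and 7 lower, the lower ones led by Sgo1, which protects cohesion at centromeres (-0.35 ± 0.043), and Gtse1 (-0.34 ± 0.064), and these 2 were also the ones with a called interaction (-0.30 ± 0.061 and -0.44 ± 0.090). The 21 DNA replication genes had 1 higher in siNTC cells, Cdt1 (0.33 ± 0.047), 2 lower in siGiver cells, Tyms (-0.23 ± 0.054) and Gins1 (-0.20 ± 0.051), and 2 with an interaction below 0, Cdt1 (-0.40 ± 0.067) and Gins1 (-0.39 ± 0.072). Of the 13 cell cycle brakes, 1 was higher and 1 lower in siNTC cells, 2 were higher and 5 lower in siGiver cells (median -0.17), and 2 had an interaction below 0. These names were chosen after their values were seen.

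Other cell types and control probe sets were read beside these results. Over all genes tested, the share called was 35.0% for the siRNA in PBS and 44.3% with Ang II. For Ang II itself it was 6.14% in siNTC and 16.3% in siGiver cells, and for the interaction 6.21%. All 9 smooth muscle markers were above the filter, with a log2 summed level between 15.04 and 15.24 on the 8 arrays, 6 higher and 1 lower in siGiver cells in PBS, and 7 higher and 1 lower with Ang II. Ang II lowered 3 of the 9 in siNTC cells and raised 2 in siGiver cells. All 8 fibroblast markers were above the filter too (summed level 12.4 to 12.8), with 0 called in siGiver cells in PBS (1 higher at an unadjusted p under 0.05) and 3 higher with Ang II. Their sum is mostly Lum (mean 12.41), and Dpt (4.94) and Fap (4.91) lie close to the filter. Ang II lowered 4 of the 8 in siNTC cells (median -0.19) and 1 in siGiver cells. The 7 annotated endothelial markers were all below the filter. Of 8 macrophage and leukocyte markers 4 were above it (summed level 8.82 to 9.20, mostly Cd14, mean 8.37, with Cd68 near the filter at 5.01). Of these 4, 0 were called in siGiver against siNTC cells in PBS (0 at an unadjusted p under 0.05). With Ang II 2 were lower (Cd14 and Cd68, list median -0.26), and 1 had a called interaction, below 0. The fibroblast and macrophage counts for the siRNA with Ang II were near the share of all genes. The median of the 24 poly-A spike-in probe sets was 0.51 log2 higher in siGiver than siNTC arrays in PBS and -0.18 with Ang II. That of the 18 hybridisation spike-in probe sets differed by 0.16 and -0.13. A Gapdh probe set was higher by 0.64 and 0.56, and a beta-actin probe set differed by -0.04 and -0.003. The probe set for 5S ribosomal RNA was lower, by -0.57 and -1.16. The part of the marker, Gapdh and ribosomal RNA differences in the results was not tested.

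Directions above are on the deposited scale, which sets the arrays to a common distribution. Subtracting the spike-in median of each array, an alternative added after the data were seen, moved the median of all genes by -0.51 in the siRNA comparison in PBS, 0.18 in that with Ang II, -0.10 and 0.59 in the Ang II comparisons of siNTC and siGiver cells, and 0.69 in the interaction. On that scale 8 of the 42 genes were called higher and 4 lower in siGiver cells in PBS (1.29% and 91.1% of all genes), and all 42 were called higher with Ang II in siGiver cells, as were 98.5% of all genes. The interaction was also called above 0 for all 42, Kif22 and Nusap1 included, as for 97.6% of all genes. Relative to the median of all genes, the median of the 42 genes was 0.57 and 0.53 in the siRNA comparisons and -0.03, -0.08 and -0.03 in the Ang II comparisons and the interaction. These relative values are the same on both scales by construction, because the subtraction shifts every gene of an array equally. With array medians subtracted instead, the calls over all genes for Ang II in siGiver cells were 1164 higher and 561 lower, against 1036 and 816 on the deposited scale.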

How the data were processed

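The deposited values are log2 expression values, 1 per probe set and array. Per the submitters' processing notes, RMA and Partek were used, in versions not given in the sources consulted. RMA subtracts background, equalises the distributions of arrays and summarises each probe set as 1 value, and a level is comparable between arrays for 1 probe set only. The deposited log2 values span 2.06 to 14.6, with array medians from 6.15 to 6.19. Biotin labelling took 5 ug of total RNA, per the labels.

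Of 31099 probe sets, 57 are controls, 20832 carry 1 gene symbol in GEO's array annotation (20764 of these matched a RefSeq rat gene identifier), 436 several, and 9780 are not listed. Probe sets below the 30th percentile of mean level (4.81) were left out, and the brightest per symbol was kept. Limma 3.58.1 in R 4.3.3 fitted 1 mean per group to all 8 arrays (4 residual and 3.53 prior degrees of freedom). The 5 contrasts had p-values adjusted by Benjamini-Hochberg over 11377 genes. Errors are SE of the fit.

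The genes, lists, roles and motifs were chosen with earlier results of these data known. Array values are given for the genes with the largest and smallest siRNA difference in PBS in each role, those called with the largest Ang II change, and the 5 with the smallest interaction p. Other mitosis genes are named if among the 5 largest called, or called in the opposite direction, in the siRNA comparisons. Foxm1, Lin9 and Lin54, and the genes of other lists named for Ang II, were chosen after their values were seen. The script was tested on simulated data. Arrays of a group correlated at 0.998 and shared at most 66 identical values. Alternatives were other filters, probe set rules, normalizations, moderation and samples, and a replicate block. Batches were not tested, as scan dates and slides were not used here.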

Additional observations from a re-analysis of the deposited data

Results flagged for a closer look

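Kif22 had a different Ang II effect in the siRNA arms, with an interaction of -0.39 ± 0.080 on the log2 scale (adjusted p = 0.0312 in limma). Both siNTC Ang II arrays lay above the siNTC PBS arrays, and both siGiver Ang II arrays below the siGiver PBS arrays. Nusap1 also differed between the arms, by -0.27 ± 0.061 (adjusted p = 0.0465), with both siGiver Ang II arrays below the siGiver PBS arrays and overlapping siNTC groups. The second Nusap1 probe set gave -0.14 (adjusted p = 0.478). Over 16 other settings the Kif22 call was lost in 7 and the Nusap1 call in 13. These were 2 of 42 genes, beside 6.21% of all genes called. With poly-A spike-in medians subtracted, both interactions were above 0. Groups of 2 arrays are too small to look for single arrays that stand apart.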

How the results depend on the processing

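Over 17 other settings of each siRNA comparison, 8 of which leave out 1 array each, the count of mitosis and spindle genes called stayed within 1.5 times its value. Leaving out 1 array gave 38 to 40 genes in PBS and 37 to 39 with Ang II. The Ang II and interaction counts depended on the processing, and the cause was not tested. Leaving out 1 array gave 0 to 2 genes for Ang II in siNTC cells, 1 to 4 in siGiver cells and 0 to 1 for the interaction. At an unadjusted p under 0.05 with the filter, 7 genes had an interaction below 0, against 1346 of all 11377 genes tested. Without the filter the counts called by limma were 1, 2 and 0. With probe sets averaged per gene they were 1 in siNTC cells and 1 for the interaction, and with every probe set on its own 1 for the interaction. A filter at the 50th percentile gave 13 in siGiver cells, array medians subtracted gave 2 there and 1 for the interaction, trended robust moderation 4 and 14 in the siNTC and siGiver arms, and a fit of only the groups compared 0 and 3. Differences between replicates 1 and 2 correlated weakly between groups (from -0.17 to 0.10), which cannot exclude cultures shared by replicate number. The positive correlations, 0.096 and 0.091, joined siNTC and siGiver arrays of the same treatment. A replicate block gave 1 gene in siNTC cells and 1 for the interaction. With poly-A spike-in medians subtracted, chosen after seeing the data, 12 genes were called for the siRNA in PBS (8 higher and 4 lower), beside 10512 of all genes. Called for Ang II in siGiver cells and for the interaction were 42 and 42, all higher, beside 11211 and 11118 of all genes. On the deposited scale 6 and 2 were called there, all lower.

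Over all genes, leaving out 1 array gave 2768 to 3779 calls for the siRNA in PBS, 3952 to 5027 with Ang II, 226 to 526 for Ang II in siNTC cells, 866 to 1740 in siGiver cells and 356 to 435 for the interaction. Calls for Ang II in siNTC cells were 420 without the filter, 1066 with the filter at the 50th percentile, 1496 with trended robust moderation and 422 with only the groups compared. In siGiver cells there were 1345 of 14217 genes without the filter and 2313 of 9227 with the filter at the 50th percentile. Array medians subtracted gave 1725 there, trended robust moderation 2802 and only the groups compared 1211. The interaction had 467 without the filter and 1490 with trended robust moderation. All 42 genes lay above the filter on every array, and each group had 2 arrays.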
